A study of Mus musculus with 3 samples.

Results

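The cornified envelope genes are the genes of the protein shell that replaces the plasma membrane of a dying keratinocyte in the outermost epidermis, and of the enzymes and companion proteins made with it. They were examined on the arrays of macrophages sorted from mouse backskin. Members were chosen by symbol. They comprise every Lce gene and every Sprr gene numbered in its family, together with 19 named genes: Lor, Ivl, Flg, Flg2, Hrnr, Rptn, Tchh, Tchhl1, Crnn, Tgm1, Tgm3, Tgm5, Cnfn, Sbsn, Krtdap, Dmkn, Lgals7, Sfn and Calml3. The mouse annotation held 57 such genes, and 48 of them had a probe among the 19752 genes that could be named on the array. No probe was named for Flg, Lce1j, Lce1k, Lce3d, Lce3e, Lce6a, Sprr2a1, Sprr2a3 and the pseudogene Sprr2c-ps.

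In the epidermis, basal keratinocytes stop dividing, move upward through the spinous and granular layers and die as flattened corneocytes. On the way transglutaminases crosslink involucrin, loricrin, small proline-rich proteins and late cornified envelope proteins under the membrane, while S100-fused proteins such as filaggrin and trichohyalin bind the keratin filaments within. Most of these structural genes lie together in the epidermal differentiation complex, which is on chromosome 3 in the mouse and held 47 of the 57 members. Macrophages are not known for making a cornified envelope.

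Cells of the surface phenotype CD11b+Gr1-F480+ had been sorted from the total backskin, epidermis and dermis together, of CD1 mice at postnatal days 42, 55 and 69 (P42, P55 and P69), during the second telogen, the resting phase of the hair cycle. No treatment or engineered allele is given for any group. RNA of 3 littermate mice was pooled for each age and hybridized to 1 array per age, so no difference below has a replicate check, no p-value is given, and the spread between animals is unknown. The only error that the arrays hold is that between repeated spots of 1 probe, whose SD for a difference between arrays was 0.16 to 0.17 on the log2 scale; it covers the spots and neither the amplification nor the mice. The comparison asks how the genes of the sorted cells differ as telogen advances.

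A level is the log2 processed signal of a probe relative to the 75th percentile of its array, and a change is the difference of 2 levels of the same probe. Levels of different probes are not comparable with each other. With a signal well above background on 1 side only, the change is a bound. Between 59.7% and 71.4% of all probes were well above background, and no spot was saturated. The authors' own table of processed values carries the values of the P69 scanner file under P55 and those of the P55 scanner file under P69, with 100% of the probes within 0.05 on the log2 scale. Which age these 2 arrays represent thus cannot be settled from the files; below, P55 and P69 name the arrays as the scanner files were deposited, and the P42 array was not affected. All 15 macrophage markers on the array, among them Itgam and Adgre1, the genes of CD11b and F480, were well above background on every array.

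Fewer of the cornified envelope genes than of all genes gave a signal. Well above background were 23 of 48 members (47.9%) at P42, 22 (45.8%) at P55 and 24 (50%) at P69, beside 77.7%, 70.5% and 77.0% of all named genes. In all, 27 members were well above background on at least 1 array and 21 on none. The 7 suprabasal secreted and cytoplasmic proteins, the 3 transglutaminases, loricrin and involucrin were above background on all 3 arrays. In contrast, only 4 of 14 small proline-rich genes and 7 of 16 late cornified envelope genes were so on any array. The members on none were Lce1a1, Lce1b, Lce1d, Lce1e, Lce1f, Lce1g, Lce1l, Lce3c, Lce3f, Rptn, Tchhl1, Sprr1b, Sprr2b, Sprr2d, Sprr2e, Sprr2f, Sprr2g, Sprr2i, Sprr2k, Sprr3 and the pseudogene Sprr2j-ps. Of these, Lce1b was spotted 10 times, and 0 of its spots at P42, 3 of 10 at P55 and 0 at P69 were well above background.

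**Figure D1:**
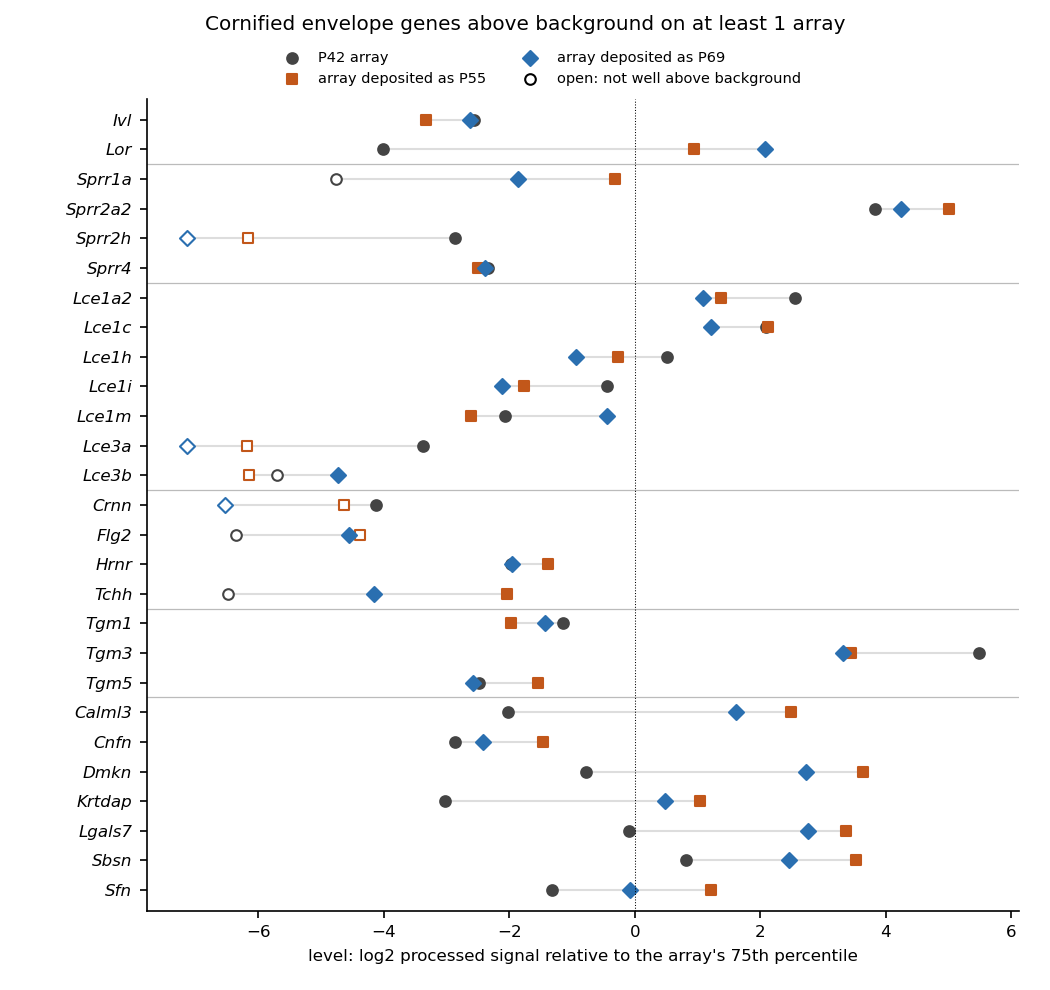
Level of each of the 27 members above background on at least 1 array, as log2 processed signal relative to the 75th percentile of the array; 1 symbol is 1 array, open symbols are not well above background, and lines divide the gene groups. Positions compare arrays within a row only. Lor spans the widest measured range, from -4.02 at P42 to 2.07 at P69, and the suprabasal group at the bottom lies lowest at P42 throughout.

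The genes did not move in 1 direction. Loricrin, the small proline-rich gene Sprr1a and 6 of 7 suprabasal secreted and cytoplasmic genes were at least 2-fold higher on both later arrays than at P42, whereas Lce1a2, Lce1i, Sprr2h and Tgm3 were at least 2-fold lower on both. These are 8 and 4 of 27 members (29.6% and 14.8%), beside 2593 and 1770 of 16589 genes, so that the share that was lower is near the general one. The call of Tgm3 ends when its 2 probes are combined, that of Sprr1a at P69 with normexp background correction, and that of Sprr2h at P55 with quantile normalization or no scaling. Lce1a2 fell under 2-fold at P55 with the median over its probes (-0.81 on the log2 scale). Without scaling, Lce1a2 was so at P55 and P69 (-0.91 and -0.30), and Lce1i at P69 (-0.51). With normexp correction Sfn was also under 2-fold at P69 (0.98). At P69, 9 of the 27 members with a signal on either array were at least 2-fold higher than at P42 and 6 were lower (33.3% and 22.2%), beside 22.0% and 20.9% of all genes. At P55, 11 of 25 were higher and 4 lower (44.0% and 16.0%), beside 28.9% and 16.7% of all genes. The counts of 2-fold differences thus stood near or somewhat above those of all genes, and the upper tail stood farther out. At least 10-fold higher were 4 of 27 members at P69 (14.8%) and 6 of 25 at P55 (24.0%), beside 0.677% and 1.12% of all genes. At least 10-fold lower were 0 of 27 and 0 of 25, beside 0.5% and 0.312% of all genes. The median change of the members was 0.03 at P69, against 0.15 for all genes, and 0.78 at P55, against 0.22. Both comparisons use the same P42 array.

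How many members were called depended on the scaling. Without any scaling 17 members were at least 2-fold higher and 2 lower at P69, when the median of all genes itself stood at 1.31, and 12 and 2 at P55. With the 75th percentile taken over the probes above background on all arrays, the split at P55 was 10 higher and 8 lower, and 2 rather than 4 members passed 10-fold at P69. With normexp background correction, which adds an offset that shrinks the changes of dim probes, 1 member passed 10-fold at P69 and 2 at P55.

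**Figure D2:**
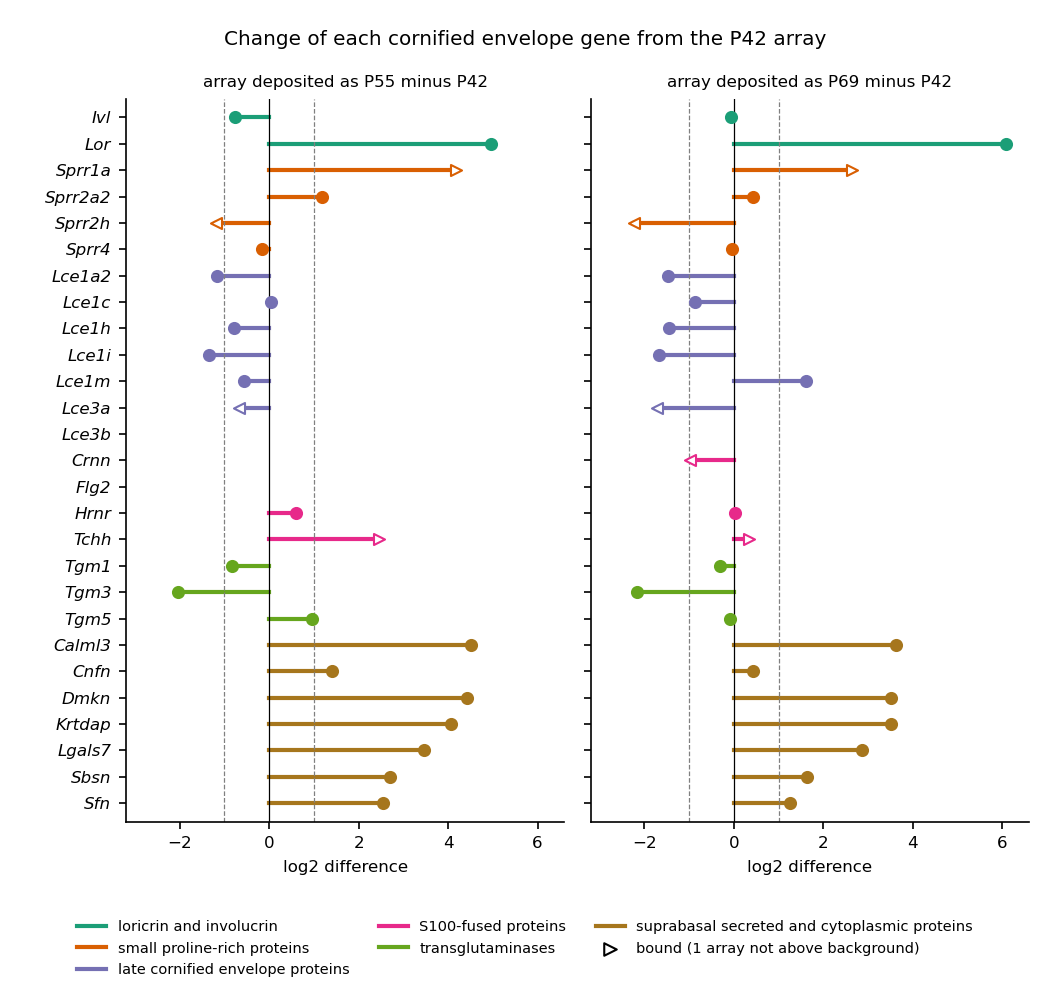
Log2 difference of each member from the P42 array, for the array deposited as P55 (left) and as P69 (right); filled points are measured on both arrays, open arrowheads are bounds, dashed lines mark 2-fold, and Lce3b and Flg2 have no value. The suprabasal group and Lor extend to the right in both panels and most Lce genes to the left, with Lce1m changing sides from -0.55 to 1.62.

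**Figure D3:**
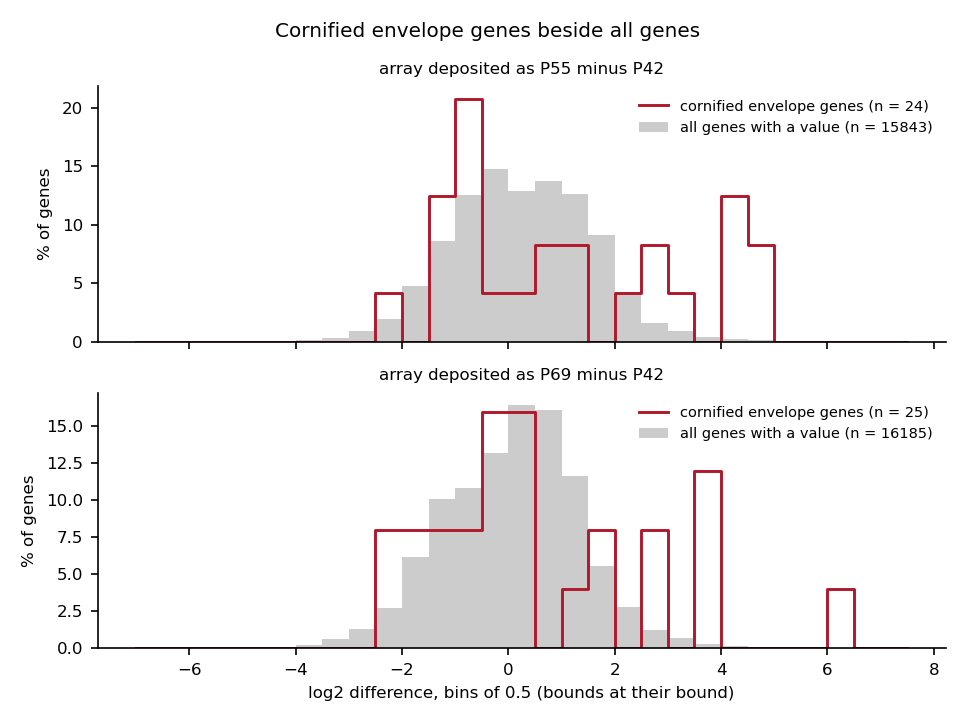
Share of genes in each bin of 0.5 on the log2 scale for the change from P42, for all genes (grey bars) and the cornified envelope genes (red line), at P55 (top) and P69 (bottom). The bulk of the members overlaps the bulk of all genes, with medians of 0.78 and 0.03 against 0.22 and 0.15, and a set of members stands beyond it on the right.

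The sequences upstream of 6 members are shown as examples of genes that moved in different directions. They are Lor, Sprr1a, Dmkn and Krtdap, which were higher on both later arrays, Tchh, with its highest level at P55, and Lce1i, which was lower on both. Each is the 250 bases before the RefSeq start of the gene (build GRCm38.p6), 5′ to 3′ on the strand of the gene; a window was found for 52 of the 57 members. Capitals mark the letters TGAGTCA or its reverse complement TGACTCA, the binding motif of AP-1 factors, and the letters TATAAA of a TATA box, searched on the strand of the gene only.
Lor, chr3:92083143-92083392, minus strand: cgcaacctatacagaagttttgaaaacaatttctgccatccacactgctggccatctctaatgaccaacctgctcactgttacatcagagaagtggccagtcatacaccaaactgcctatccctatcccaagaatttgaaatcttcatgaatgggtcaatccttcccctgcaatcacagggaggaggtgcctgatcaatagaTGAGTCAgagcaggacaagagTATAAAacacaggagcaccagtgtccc
Sprr1a, chr3:92485882-92486131, minus strand: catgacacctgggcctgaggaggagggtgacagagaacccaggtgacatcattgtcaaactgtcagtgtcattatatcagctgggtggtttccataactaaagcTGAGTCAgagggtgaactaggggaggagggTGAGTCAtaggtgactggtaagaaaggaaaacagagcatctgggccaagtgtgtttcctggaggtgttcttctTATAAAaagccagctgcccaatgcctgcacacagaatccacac
Dmkn, chr7:30763506-30763755, plus strand: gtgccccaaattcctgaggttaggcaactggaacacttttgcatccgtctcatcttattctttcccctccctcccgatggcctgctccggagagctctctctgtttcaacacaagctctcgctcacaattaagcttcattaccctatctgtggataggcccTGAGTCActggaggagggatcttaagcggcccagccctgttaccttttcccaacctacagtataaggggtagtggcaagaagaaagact
Krtdap, chr7:30787655-30787904, plus strand: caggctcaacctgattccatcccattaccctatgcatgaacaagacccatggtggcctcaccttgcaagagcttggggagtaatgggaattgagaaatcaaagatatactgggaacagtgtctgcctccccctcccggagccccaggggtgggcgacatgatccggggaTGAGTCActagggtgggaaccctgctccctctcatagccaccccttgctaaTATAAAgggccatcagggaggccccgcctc
Tchh, chr3:93442080-93442329, plus strand: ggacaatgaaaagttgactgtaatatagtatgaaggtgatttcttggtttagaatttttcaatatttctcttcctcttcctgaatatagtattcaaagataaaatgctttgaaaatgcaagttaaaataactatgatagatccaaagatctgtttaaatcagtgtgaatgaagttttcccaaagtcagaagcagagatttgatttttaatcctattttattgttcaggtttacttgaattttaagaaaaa
Lce1i, chr3:92778900-92779149, minus strand: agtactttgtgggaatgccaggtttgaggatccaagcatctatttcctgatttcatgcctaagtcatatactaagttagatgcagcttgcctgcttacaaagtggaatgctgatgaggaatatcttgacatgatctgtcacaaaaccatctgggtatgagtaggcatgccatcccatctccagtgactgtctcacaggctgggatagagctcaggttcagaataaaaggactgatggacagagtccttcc

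The AP-1 letters stood in the window of 12 of 52 members (23.1%), beside 5.16% of 27025 genes with a window, and TATAAA in 20 of 52 (38.5%), beside 8.94%. In Lor the AP-1 letters began 48 bases before the start and TATAAA 27 bases before it. Sprr1a held the AP-1 letters at 146 and at 116 bases before the start. Krtdap held them at 81 bases, and Dmkn at 89 bases in the window shown. Of the 7 members with a window that were at least 2-fold higher on both later arrays, these 4 held the AP-1 letters and Lgals7, Sbsn and Sfn did not. Ivl and 7 Sprr2 genes held them too, among them Sprr2h, which was lower. None of 20 late cornified envelope genes, 7 S100-fused genes and 3 transglutaminases held them in these 250 bases. Windows of one family are not independent, since those of Sprr2a1 and Sprr2a2 were identical over all 250 bases and those of Lce1g and Lce1i agreed at 85.6% of positions. A match is a description of the letters and not evidence of binding.

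Loricrin, the most abundant protein of the cornified envelope, had the largest difference of all members on the scale used here. Its level on the log2 scale was -4.02 at P42, 0.94 at P55 and 2.07 at P69. It was thus close to the lowest level above background on the P42 array (-4.5) and above the 75th percentile on both later arrays. These levels correspond to a 31.1-fold difference at P55 and a 68.0-fold difference at P69 relative to P42. With normexp correction the changes were 4.43 at P69 and 3.32 at P55 on the log2 scale, and at P55 those of Dmkn and Calml3, 4.12 and 3.83, were larger. On the scale used here only 1 of 16185 genes with a value had a larger increase at P69, and 11 of 15843 at P55. Involucrin, an early crosslinking partner in the same envelope, had levels of -2.56, -3.33 and -2.63 at P42, P55 and P69. Its changes of -0.77 at P55 and -0.07 at P69 stayed under 2-fold, and a dimmer Ivl probe differed by 0.07 and 0.21. The AP-1 and TATA letters stand in the windows of both genes.

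The suprabasal secreted and cytoplasmic proteins formed the most uniform group. All 7 were at least 2-fold higher at P55 than at P42, 4 of them at least 10-fold, beside 28.9% and 1.12% of all genes. At P69, 6 of 7 were at least 2-fold higher, 3 of them at least 10-fold, beside 22.0% and 0.677% of all genes. Their median change was 3.46 at P55 and 2.86 at P69. Dmkn (dermokine) and Krtdap (keratinocyte differentiation-associated protein), both secreted by suprabasal keratinocytes, rest with Sbsn (suprabasin) as neighbouring protein-coding genes on chromosome 7. The level of Dmkn was -0.78 at P42, 3.64 at P55 and 2.73 at P69, which is 21.3-fold and 11.4-fold higher than at P42, and its other probe gave changes of 4.48 and 3.58. The level of Krtdap was -3.02, 1.04 and 0.49, a 16.7-fold and an 11.4-fold difference. The level of Sbsn was 0.82 at P42, 3.53 at P55 and 2.46 at P69, so that its differences were 6.54-fold and 3.1-fold. On this scale all 3 neighbours had the order P42, P69, P55 from low to high. Without scaling, the changes at P55 and P69 were 4.68 and 4.67 for Dmkn, 4.33 and 4.67 for Krtdap and 2.97 and 2.80 for Sbsn. The order of the 2 later arrays thus depended on the scaling.

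On the scale used here, the same order held for the other members of that group. Without scaling, the changes at P55 and P69 were 4.78 and 4.79 for Calml3, 3.72 and 4.02 for Lgals7 and 2.81 and 2.42 for Sfn. Calml3, a calmodulin-like protein of stratified epithelia, had levels of -2.02 at P42, 2.50 at P55 and 1.61 at P69, which is 22.9-fold and 12.4-fold higher; a dimmer probe gave 2.42 and 1.24 on the log2 scale, the same direction at a smaller size. Lgals7 (galectin-7), an epithelial lectin, stood at -0.09, 3.37 and 2.77, an 11.0-fold and a 7.24-fold difference. Sfn, the 14-3-3 protein sigma of differentiating keratinocytes, stood at -1.33, 1.22 and -0.07, or 5.84-fold and 2.39-fold above P42. Its change at P69 was 0.98 on the log2 scale with normexp correction, just under 2-fold. Cnfn (cornifelin), a minor component of the envelope, had the smallest differences of the group, with levels of -2.86, -1.46 and -2.43. It was 2.65-fold higher at P55, and its change of 0.44 at P69 was under 2-fold.

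The small proline-rich proteins, crosslinking bridges of the envelope, were mostly at background, and the 4 with a signal each had a different pattern. Sprr1a, which is also induced by stress in epithelia, was not well above background at P42 and had levels of -0.32 at P55 and -1.86 at P69. It was therefore at least 18.2-fold higher at P55 and at least 6.25-fold higher at P69. With normexp correction the bounds were 2.34 and 0.94 on the log2 scale, the latter under 2-fold. Sprr2a2 had levels of 3.83, 5.02 and 4.25 on its brightest probe, with changes of 1.19 at P55 and 0.42 at P69. Of its other probes, 1 stayed at background throughout and 1 stood above it at P55 and P69 only, with levels of -0.72 and -4.73. Sprr2a2 is nearly identical with Sprr2a1 and Sprr2a3, for which no probe was named, so its signal cannot be assigned to 1 of them. Sprr2h went the other way. It had a level of -2.86 at P42 and was not well above background later, hence at least 2.27-fold lower at P55 and at least 4.72-fold lower at P69; the bound at P55 was -0.41 on the log2 scale with quantile normalization and -0.92 without scaling, both under 2-fold. Sprr4 barely differed, at -2.34, -2.50 and -2.38.

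The late cornified envelope proteins, made last in the granular layer, tended to be lower on the later arrays. Of the 7 with a signal at P42 or P69, 4 were at least 2-fold lower at P69 and 1 was higher, and of the 6 with a signal at P42 or P55, 2 were lower and none higher, while 20.9% and 16.7% of all genes were lower at P69 and P55; the median changes were -1.46 and -0.73. Without scaling these 4 genes kept their sign at P69 but fell short of 2-fold, with changes of -0.29 to -0.56. Lce1a2 had levels of 2.55 at P42, 1.38 at P55 and 1.09 at P69, or 2.25-fold and 2.76-fold lower than at P42, although its other probe gave changes of only -0.46 and -0.57. Lce1i stood at -0.43, -1.77 and -2.11, which is 2.53-fold and 3.20-fold lower. A dimmer Lce1i probe was well above background at P42 only. Lce1h stood at 0.52, -0.27 and -0.93, 1.73-fold lower at P55 and 2.73-fold lower at P69.

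Other Lce genes did not follow this order. Lce1c stood at 2.09, 2.13 and 1.22, under 2-fold in both comparisons with P42, and a dim second probe was well above background at P55 only. Lce1m was the exception, with levels of -2.06 at P42, -2.62 at P55 and -0.44 at P69. It was 3.08-fold higher at P69 than at P42 and 4.53-fold higher than at P55. Lce3a was well above background only at P42, with a bound of at least 1.59-fold lower at P55 and at least 3.31-fold lower at P69, whereas Lce3b was so only at P69, too close to background for a bound. The Lce1 genes are close paralogs and the probe sequences were not used here, so signal shared between them cannot be separated.

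**Figure D4:**
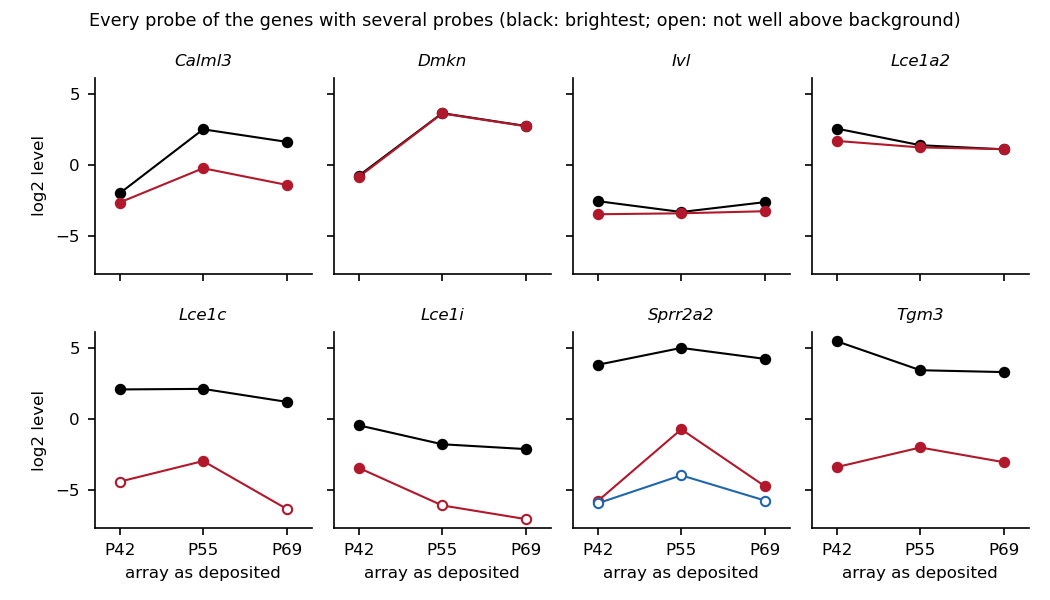
Log2 level of every probe on each array for the 8 members with several probes, with the brightest probe of each gene in black and values not well above background as open points. The probes of Dmkn nearly coincide and those of Calml3 rise in the same direction by different amounts, while those of Tgm3 run in opposite directions, from 5.49 to 3.45 and from -3.38 to -2.0 between P42 and P55.

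Among the S100-fused proteins, large keratin-binding proteins with a calcium-binding amino terminus, none was called at P69. Tchh (trichohyalin), which hardens the inner root sheath of the hair follicle, was not well above background at P42, stood at -2.04 at P55 and was at -4.16 at P69. On the scale used here, it was at least 5.51-fold higher at P55 than at P42, 4.36-fold higher at P55 than at P69, and at least 1.26-fold higher at P69 than at P42. With normexp correction the bound at P55 was 1.11 and the difference of P69 from P55 was -1.40 on the log2 scale. The inner root sheath keratins Krt25, Krt27 and Krt71 were well above background on the P55 array only, with bounds of at least 2.88, 2.42 and 3.92 on the log2 scale over P42. Krt28, Krt72 and Krt73 of the same sheath were above background on every array and had changes of 0.96, -0.40 and -0.26 at P55. Whether these keratins and Tchh come from the same cells was not tested. Hrnr (hornerin), a filaggrin-like protein, stood at -1.98, -1.38 and -1.95, under 2-fold throughout. Crnn (cornulin) was well above background at P42 only, hence at least 1.96-fold lower at P69, and Flg2 (filaggrin-2) at P69 only, with no bound.

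None of the 3 transglutaminases, which form the crosslinks, was at least 2-fold higher on either later array by its representing probe. Tgm1, the membrane-bound enzyme of the epidermis, stood at -1.14 at P42, -1.97 at P55 and -1.44 at P69, with changes of -0.84 and -0.30. Tgm5 stood at -2.49, -1.54 and -2.58, with changes of 0.95 and -0.09. Tgm3, the enzyme of the upper epidermis and the hair follicle, stood at 5.49, 3.45 and 3.32, or 4.12-fold and 4.51-fold lower than at P42. A second, dimmer Tgm3 probe gave the opposite sign, with levels of -3.38, -2.0 and -3.04 and changes of 1.39 at P55 and 0.35 at P69. With the median over both probes the changes were -0.33 and -0.91, and the gene was no longer called. Which probe follows the Tgm3 transcript was not tested.

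Members on chromosome 3 and elsewhere are given separately. Of the 38 members on chromosome 3 with a probe, 17 had a signal at P42 or P69 and 15 at P42 or P55. Of these, 3 were at least 2-fold higher and 5 lower at P69 than at P42, with a median change of -0.07, and 4 were higher and 3 lower at P55, with a median of -0.36. Of the 10 members elsewhere, all with a signal, 6 were higher and 1 lower at P69, with a median of 1.45, and 7 were higher and 1 lower at P55, with a median of 2.63. Of all genes, 22.0% were higher and 20.9% lower at P69, and 28.9% and 16.7% at P55, so that the counts on chromosome 3 stand near the general shares.

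Between the 2 later arrays, 17 of 22 members with a value were lower at P69 than at P55, with a median of -0.63 against -0.15 for all genes. At least 2-fold lower at P69 were 5 of 24 members (20.8%), beside 10.8% of all genes: Tchh by 2.13, Sprr1a by 1.54, Sfn by 1.29, Sbsn by 1.08 and Tgm5 by 1.04 on the log2 scale. At least 2-fold higher were 2 of 24 (8.33%), beside 7.48%, namely Lce1m and Lor, with differences of 2.18 and 1.13. Without scaling the split was 5 higher and 1 lower. If the 2 arrays are exchanged, these directions turn, and Lce1m has a change of -0.55 at P69 against P42, while every other member called at P69 or P55 keeps its direction against P42.

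Other genes of the same programme, none of them members, were in part higher as well. Of 16 further envelope and granular layer genes, 14 had a signal at P42 or P69 and 15 at P42 or P55. Of the 14, 8 were at least 2-fold higher and 1 lower at P69, with a median of 1.41. Of the 15, 10 were higher and 1 lower at P55, with a median of 1.6. Among all genes, 22.0% were higher and 20.9% lower at P69, and 28.9% and 16.7% at P55. Envoplakin and periplakin, the scaffold on which the envelope is built, were among those higher on both later arrays. Evpl was higher by 3.29 at P55 and 2.53 at P69, and Ppl by 1.6 and 2.04. Cst6, the cystatin that restrains cathepsins in the cornified layer, was higher by 4.39 and 2.97. Casp14, Cdsn (corneodesmosin) and Aloxe3 were not well above background at P42, with bounds of 3.18, 3.80 and 4.57 at P55 and 2.43, 1.48 and 1.92 at P69. Asprv1, a protease that matures filaggrin, was higher by 1.75 and 1.55, and Blmh, which degrades filaggrin to amino acids, by 1.32 and 1.33. Spink5, a protease inhibitor of the granular layer, had changes of -0.88 and -2.07. Abca12 was not well above background at P55, with a bound of -1.49 there and a change of -0.85 at P69.

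Of 21 regulators of cornification, 20 had a signal at P42 or P69 and 19 at P42 or P55. At P69, 6 were at least 2-fold higher and 2 lower, with a median of 0.11. At P55, 6 were higher and 3 lower, with a median of 0.20. These counts are near the shares of all genes, 22.0% higher and 20.9% lower at P69 and 28.9% and 16.7% at P55. The transcription factors Grhl1, Gata3, Tfap2a and Zfp750 and the kinase Ripk4 were at least 2-fold higher on both later arrays, Grhl1 by 3.63 at P55 and 3.23 at P69. Klf4 had changes of -0.39 and 0.07. On the scale used here Jun, a subunit of AP-1 that many cell types express, was lower on both, by a change of -1.12 at P55 and -1.61 at P69. The regulators were not examined without scaling, when the median of all genes stood at 0.52 at P55 and 1.31 at P69. Whether the lower call of Jun holds there was thus not tested.

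**Figure D5:**
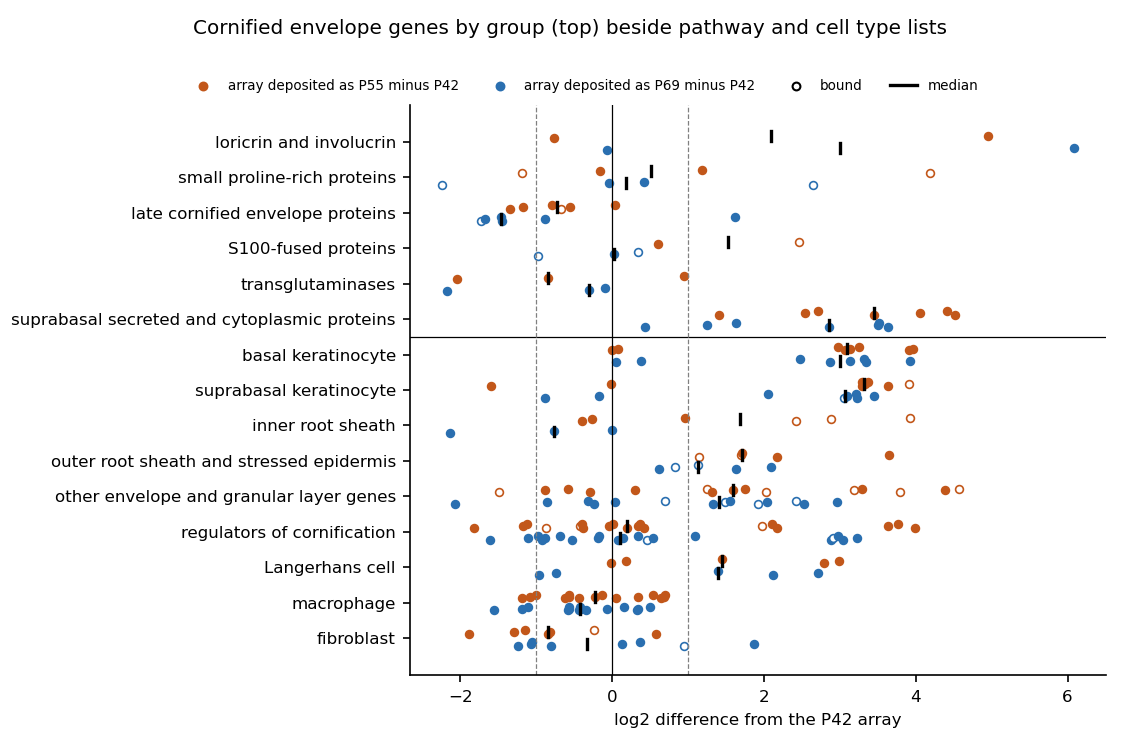
Log2 change from P42 of every gene with a value, by gene group of the cornified envelope genes (above the line) and by list (below it); orange is P55, blue is P69, open points are bounds, bars are medians and dashed lines mark 2-fold. The suprabasal group, with medians of 3.46 and 2.86, lies in the same range as the basal keratinocyte list, with medians of 3.1 and 3.01, while the macrophage list has medians of -0.23 and -0.42.

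Most keratinocyte markers were higher on the later arrays, as were Lor, Sprr1a and the suprabasal group. The cornified envelope genes as a whole did not share this direction, and all changes use the same P42 array. Among all genes, 15.6% were at least 2-fold higher on both later arrays, which is the share to set beside the counts of each list below. All 8 basal keratinocyte markers were above background on every array. Of them, 6 of 8 were at least 2-fold higher on both later arrays, with medians of 3.1 at P55 and 3.01 at P69. Their summed signal was 16.5, 105 and 78.0 times the 75th percentile at P42, P55 and P69. Of 8 suprabasal keratinocyte markers, 6 were higher on both, with medians of 3.32 and 3.07 and summed signals of 4.18, 39.5 and 34.4. The other two, Dsc1 and Krt2, had changes of -1.59 and -0.01 at P55 and -0.88 and -0.17 at P69. The basal keratins Krt5 and Krt14 were higher by 3.97 and 3.13 at P55, and the suprabasal keratins Krt1 and Krt10 by 3.37 and 3.29. At P42, 7 of the 8 suprabasal markers were well above background, and Dsg1a was not. Of 5 Langerhans cell markers on the array, 3 were higher on both, Cd207 by 2.99 and 2.13, Epcam by 2.80 and 2.71 and Cd24a by 1.45 and 1.4. The other markers, Cd74 and H2-Ab1, had changes of -0.02 and 0.19 at P55 and -0.96 and -0.74 at P69. The 15 macrophage markers had medians of -0.23 and -0.42 and summed signals of 1090, 1050 and 672. On the scale used here, C1qb and Cd163 were at least 2-fold lower on both later arrays. The marker lists were not examined without scaling, when the median of all genes stood at 0.52 at P55 and 1.31 at P69. A summed signal follows its brightest probes, such as Itgam with levels of 9.0, 8.7 and 7.9. The sums of different lists are therefore not comparable with each other. Of the remaining lists, the medians at P55 and P69 were -0.85 and -0.33 for 8 fibroblast markers, -0.98 and -0.06 for 6 endothelial markers, 0.66 and 0.18 for 7 neutrophil markers, 0.71 and 1.02 for 5 T cell markers, 1.43 and 0.73 for 6 melanocyte markers, and 1.71 and 1.14 for 6 markers of the outer root sheath and stressed epidermis. The part of these other cells in the differences of the cornified envelope genes was not tested, and in pooled RNA of sorted cells more cells of a type cannot be told apart from more RNA per cell.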

How the data were processed

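RNA of sorted CD11b+Gr1-F480+ cells (pools of 3 littermates) was amplified by whole transcriptome amplification, coupled to Cy3 and hybridized to 1 Agilent mouse array per age. The authors scanned the arrays and deposited, for each, spot intensity after the background correction of the Feature Extraction software, without scaling between arrays. They also deposited a log2 table of 36409 probes, in which each probe has a median of 0 over the arrays and a range of at least 1 (log2), with column medians of 0.36 at P42 and 0 at P55 and P69. Its differences match those of the scanner files in scale and direction once the P55 and P69 columns are exchanged, its normalization is not given in the sources used here, and it served as an alternative only.

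Control and outlier spots (162 to 281 per array) were left out, spots of a probe were averaged on the log2 scale, and the 75th percentile of the array, 414.0 at P42, 496.7 at P55 and 927.1 at P69, was subtracted. A probe counted as above background when the software's call of a signal well above background covered a share of 0.5 or more of its spots. With 1 array above background, the change was taken against the higher of the dim signal and the lowest level above background on that array (-4.50, -4.04 and -5.10), as a bound; where this left no difference, no value was given. Probes were named through their RefSeq transcript, which gave a symbol to 26056 of 55681 probes, and a gene was represented by its brightest probe. Differences of at least 2-fold, and of at least 10-fold, the threshold of the study's methods, were called; 1 array per age allows no test. The steps were tested on simulated data. Every member was accounted for, and list genes were named by their direction on both later arrays or where at background, with other values named as contrast. The members and lists were chosen with earlier results of these data known. The labels give day 42 for the first group, while the paper gives a slightly later day for early telogen. Alternatives changed the scaling, background correction (normexp, limma 3.58.1, offset 50), filter, probe summary, outlier spots and array assignment. Scripts ran in Python 3.11.15 and R 4.3.3.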

Additional observations from a re-analysis of the deposited data

How the results depend on the processing

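With 1 array per age no replicate could be left out. No paired analysis was possible because each age has 1 array only. Detection with the software's weaker call of a positive and significant signal gave 32, 30 and 28 members in place of 23, 22 and 24. Signals near the floor of each array limit what is given for the Sprr, Lce and S100-fused genes. Keeping outlier spots changed no count. The exchange of the later arrays and changes relative to all genes were chosen after seeing the data.

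Without the filter on dim probes, 13 members were lower and 2 at least 10-fold lower at P69 (median -0.70), 9 were lower at P55 (median 0.23), and between P69 and P55 4 were higher and 11 lower (median -0.95). With the filter on both arrays the P69 median was 0.22. Without scaling, 17 were higher and 2 lower at P69 (median 1.16), 2 were lower at P55 (median 1.04), and 5 were higher and 1 lower between P69 and P55 (median 0.27). With the percentile over probes above background on all arrays, 2 were at least 10-fold higher at P69 (median -0.18), 8 were lower at P55 (median 0.23), and 3 were lower between P69 and P55 (median -0.46). Quantile normalization gave medians of 0.69 at P69 and 1.02 at P55. Normexp correction gave 1 member at least 10-fold higher at P69 (median -0.18), 2 at P55 (median 0.32), and 3 lower between P69 and P55. The median over probes gave 2 lower at P55 and 8 lower between P69 and P55. Relative to the median of all genes, the P55 median was 0.56 and 3 were lower between P69 and P55.

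In the authors' table, 7 members were at least 10-fold higher at P69 (median 1.30), 7 were lower and 2 at least 10-fold lower at P55 (median 1.12), and 5 were higher and 3 lower between P69 and P55 (median 0.66). Exchanging the scanner files gave medians of 0.78 at P69, 0.03 at P55 and 0.63 between them, with 5 higher and 2 lower. Both turned the difference between P69 and P55 of Lor (-1.13), Lce1m (-2.17 in the table, -2.18 by exchange), Sbsn (1.08), Sfn (1.29), Sprr1a (1.54), Tchh (2.13) and Tgm5 (1.05 and 1.04), and the change of Lce1m at P69 (-0.55). Apart from these 2, no setting turned any of the 37 single differences of at least 2-fold; at most 10 of 37 fell under 2-fold in a setting, namely without scaling. Leaving out the scaling adds the same amount to every measured change of a comparison, and exchanging the scanner files only swaps the labels of the later arrays. The authors' table holds only probes with a range of at least 1 (log2), so its counts and medians cover a different set of probes. Its dim values were taken without bounds. For Sprr2h at P55 it gave -4.27, as at P69 without the filter on dim probes, where the bound at P69 was -2.24. The cause of the other shifts was not tested.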
